A study of Mus musculus with 30 samples.

Results

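The ETS family genes Ets1, Ets2, Fli1, Erg, Spi1, Elf1, Etv6, Elk3 and Gabpa were followed through 15 lists of chromatin immunoprecipitation peaks. The lists come from mice that have or lack Crebbp, which encodes CBP, an enzyme that acetylates histones. These are 9 members of the family, out of 21631 protein-coding genes, chosen by name with earlier results of these data known. A peak was assigned to a gene when it overlapped the mm10 RefSeq span widened by 1 kb, and otherwise to the nearest protein-coding gene end within 50 kb. By this rule 1317 of 368503 peaks belonged to the 9 genes.

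All mice were C57BL/6 and carried the floxed allele CBPfl/fl. Wild-type cells had no Cre (Mx-Cre-) and Crebbp-null cells carried Mx-Cre+, a Cre gene under the interferon-inducible Mx promoter that is active in blood cells and in other tissues. Progenitors were lineage-negative, IL7ra-positive cells sorted from bone marrow, with 1 H3K27ac list for each genotype. Wild-type B cells were B220-positive cells sorted from spleen, with 2 lists each for H3K27ac, H3K18ac and H3K56ac and 1 list for CBP. Crebbp-null lymphoproliferative disease (LPD) was unsorted spleen tissue, with 2 lists for each of the 3 marks. Ages are not given in the sources used here, nor whether libraries 1 and 2 came from separate animals, so that spread between libraries may be technical. LPD and B cells differ in genotype, disease and sorting, which cannot be told apart. In unsorted tissue, fewer cells with a mark and less of the mark per cell cannot be told apart either.

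ETS factors are transcription factors that share a DNA-binding domain for a GGAA core. Spi1 encodes PU.1, a factor of myeloid and early B cell development. Ets1 and Elf1 are abundant in mature lymphocytes. Fli1 and Erg are close relatives known from stem cells, megakaryocytes and endothelium, and ERG marks immature blood cells. Etv6 and Elk3 are mainly repressors, Etv6 with a role in blood stem cells and as a fusion partner in leukaemia. Ets2 is a relative of Ets1 that responds to RAS signalling, and Gabpa encodes the DNA-binding subunit of GABP, a factor of many housekeeping promoters. Acetylation of H3K27, H3K18 and H3K56 marks active promoters and enhancers, and CBP with its relative p300 places much of it.

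The lists give positions and no height, so that a gene's acetylation is stated as the number of regions and the kilobases covered by peaks. The 14 acetylation lists held 13125 to 39529 peaks over 6.32 to 29.5 Mb, and read depth is unknown. LPD lists were shorter than B cell lists in covered length for H3K27ac (26.2 and 18.2 against 27.1 and 26.4 Mb) and longer for H3K18ac and H3K56ac. The counts of genes higher or lower are therefore also given per covered length of the list, while region counts, widths, stretches of a gene and the genes outside the 9 are given unscaled. All 7 B cell marker genes had H3K27ac in both groups, with a summed length of 53.8 and 50.7 kb in B cells and 49.97 and 33.5 kb in LPD. Their H3K18ac and H3K56ac were higher in both LPD lists in 7 of 7, against 54.0 and 67.1% of all genes with a region of the mark. Of 7 early lymphoid markers, 5 had H3K27ac in each progenitor list, while Il7r, Rag1, Rag2, Vpreb1 and Igll1 had none in B cells or LPD. Of 8 myeloid markers, Csf1r, Lyz2, Mpo, Elane, Cebpa and S100a8 had no H3K27ac peak in LPD, and the list summed to 1.81 and 0.478 kb there against 3.32 and 3.55 kb in B cells. Of 8 T and NK markers, Cd3e, Cd3g, Cd4, Cd8a, Gata3 and Bcl11b had none, and the list summed to 5.10 and 3.03 kb against 7.52 and 7.42 kb. Of 7 erythroid and megakaryocyte markers, Gata1, Epor and Pf4 had none, and the list summed to 2.60 and 1.23 kb against 0.797 and 0.742 kb. Of 7 endothelial markers, Tek, Kdr, Tie1, Emcn and Egfl7 had none, and the list summed to 18.7 and 11.3 kb in LPD against 10.8 and 12.4 kb. In H3K18ac, where the LPD lists are longer, the sums of these 4 lists were all higher in both LPD lists. They were 0.467 and 0.644 kb in B cells and 2.94 and 2.13 kb in LPD for the myeloid list, with Cebpa in LPD alone, and 3.51 and 3.95 against 8.52 and 6.38 kb for the T and NK list. The erythroid and megakaryocyte list had 0.430 and 0.409 against 2.01 and 1.65 kb, and the endothelial list 1.59 and 1.48 against 14.5 and 9.38 kb. The 4 sums were higher in both LPD lists in H3K56ac too, with the myeloid list at 0 and 0 against 1.06 and 0.422 kb and the endothelial list at 1.60 and 0.749 against 4.41 and 5.46 kb. Most of each endothelial sum was Pecam1, with 1.14 and 0.919 kb of H3K18ac in B cells and 13.0 and 9.11 kb in LPD. Cdh5, the only other endothelial marker with peaks, was lower in H3K27ac (2.78 and 2.53 against 2.11 and 0.827 kb). Its groups overlapped in H3K18ac and H3K56ac. Lck made up most of each T and NK sum. Pecam1, Cdh5 and Lck were picked after their values were seen. Lyz2, Mpo, Elane, S100a8, Cd3e, Cd3g, Cd8a, Gata3 and Bcl11b had no peak of any of the 3 marks in LPD. The same held for Gata1, Epor, Pf4, Tek, Kdr, Tie1, Emcn and Egfl7. The part of other spleen cells in the results below was not tested.

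H3K27ac at the ETS genes was shorter in LPD than in B cells. The 9 genes together held 153.7 and 152.7 kb of H3K27ac peaks in the B cell lists and 102.9 and 67.8 kb in the LPD lists. Their part of each list's covered length was 0.566 and 0.578% in B cells and 0.393 and 0.371% in LPD. In 7 of the 9 genes both LPD lists covered less than both B cell lists, against 38.9% of 11982 genes with an H3K27ac region. Gabpa was the 1 gene higher in both LPD lists, against 23.2% of genes, and the lists of Etv6 overlapped. The median difference over the 9 genes was -4.31 kb, and over all genes with a region it was -0.090 kb. A difference in kb can be larger where a gene holds more H3K27ac. The median log2 ratio of LPD to B cells was -0.78 over the 8 of the 9 genes with peaks in both groups. Over all such genes it was -0.12. Per covered length of the list the same 7 genes stayed lower in LPD, against 28.1% of genes, and Gabpa and Etv6 were higher, against 43.3%. With 2 lists against 2, an exact two-sided permutation test of 1 gene cannot go below p = 0.333, so the calls state only that the groups do not overlap.

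**Figure D1:**
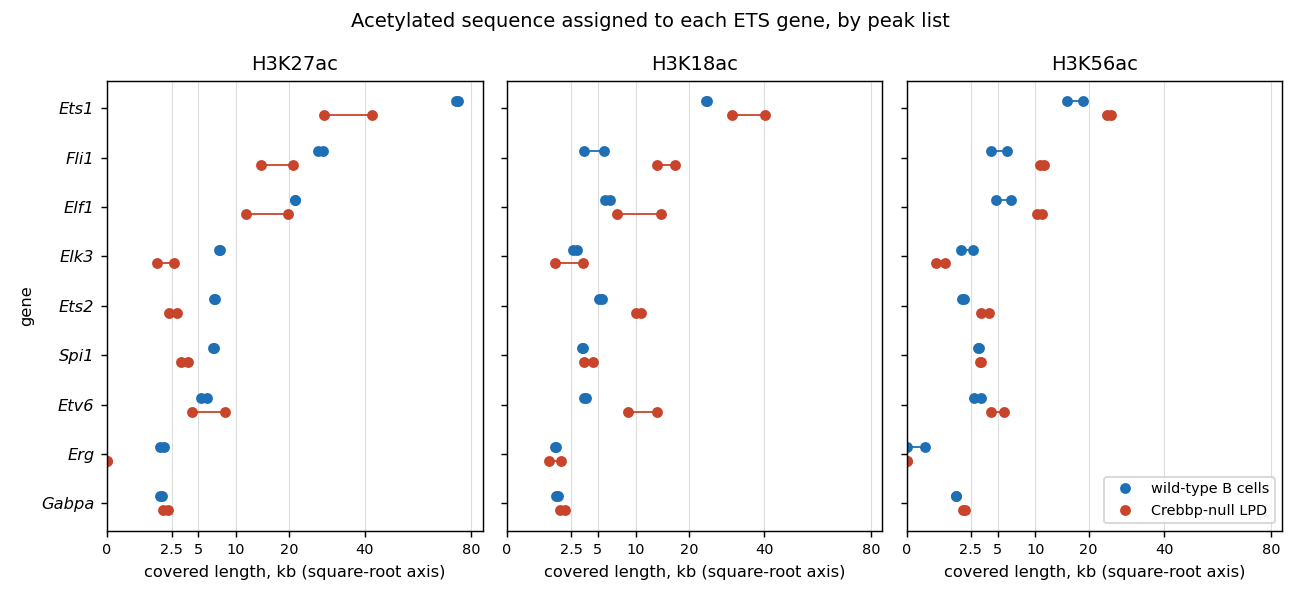
Length covered by peaks assigned to each of the 9 ETS genes, in kb on a square-root axis, with 1 point per peak list and a line joining the 2 lists of a group. In the H3K27ac panel the LPD points of 7 genes lie below their B cell points, and Erg lies at 0 in LPD, while in the H3K18ac and H3K56ac panels 7 genes lie higher in LPD.

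The other two marks covered more of most of these genes in LPD, as they did over the genome. H3K18ac was higher in both LPD lists in 7 of the 9 genes, against 54.0% of 12221 genes, and the lists of Erg and Elk3 overlapped. H3K56ac was also higher in 7 of the 9, against 67.1% of 11813 genes. Elk3 was lower in H3K56ac, against 8.45% of genes, and Erg had a peak of 200 bp in B cell list 1 alone. Per covered length of the list, only Fli1 and Etv6 stayed higher in H3K18ac, against 29.1% of genes, and only Fli1 in H3K56ac, against 27.8%. On that scale Ets1, Erg, Spi1, Elk3 and Gabpa were lower in H3K18ac (45.9% of genes), and Ets1, Spi1, Elk3 and Gabpa in H3K56ac (44.3%). The median log2 ratio of LPD to B cells over all genes with peaks in both groups moved from 0.46 to -0.43 for H3K18ac under this scaling, from 0.54 to -0.28 for H3K56ac, and from -0.12 to 0.16 for H3K27ac. Directions given below for H3K18ac and H3K56ac at single genes are those of the unscaled lengths.

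Regions were formed by merging the 4 lists of a mark and were called lost when both B cell lists had a peak and no LPD list did. They were called gained where only the LPD lists, both of them, had one, and kept with a peak in each of the 4. Of 140 H3K27ac regions at the ETS genes, 38 were lost and 4 gained. These are 27.1 and 2.86%, against 15.9 and 11.4% of all 40435 H3K27ac regions. A further 46 were kept (32.9%, against 36.5%) and 52 had other patterns. Without Ets1, which holds 57 of the 140, 26.5% of the remaining regions were lost and 4.82% gained. Within 1 kb of a gene end, 7 of 10 H3K27ac regions were kept and 3 lost, against 71.0 and 5.94% of all regions there. Inside a gene 30 of 101 were kept and 25 lost (29.7 and 24.8%, against 21.9 and 17.8%), and outside 9 of 29 were kept and 10 lost (31.0 and 34.5%, against 23.9 and 23.7%). Of 136 H3K18ac regions, 33 were gained and 6 lost, shares of 24.3 and 4.41% that lie near the 25.0 and 3.88% of all regions, and 39 were kept (28.7%, against 29.5%). Of 118 H3K56ac regions, 20 were gained and 6 lost, shares of 16.9 and 5.08% against 23.7 and 4.21%, and 38 were kept (32.2%, against 35.1%). Leaving out 1 library moved several of these counts by more than 1.5 times. Without B cell library 2, 61 H3K27ac regions were lost (43.9%, against 25.1% of all), and without LPD library 2, 14 were gained (9.86%, against 25.8%). Gained H3K18ac regions were 51 without LPD library 1 and 61 without library 2 (40.2 and 48.4%, against 40.2 and 48.3%). Lost ones were 13 without LPD library 1 (10.2%, against 7.21%) and 10 without B cell library 1 (7.30%, against 8.11%). Gained H3K56ac regions were 38 and 32 without LPD libraries 1 and 2 (31.7 and 29.1%, against 38.4 and 36.7%). Lost ones were 23 without B cell library 2 (19.3%, against 9.65%). The counts also depend on how pieces of 1 enhancer are joined: with peaks less than 500 bp apart merged, 16 of 71 H3K27ac regions were lost, 22.5% against 13.4% of all regions.

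**Figure D2:**
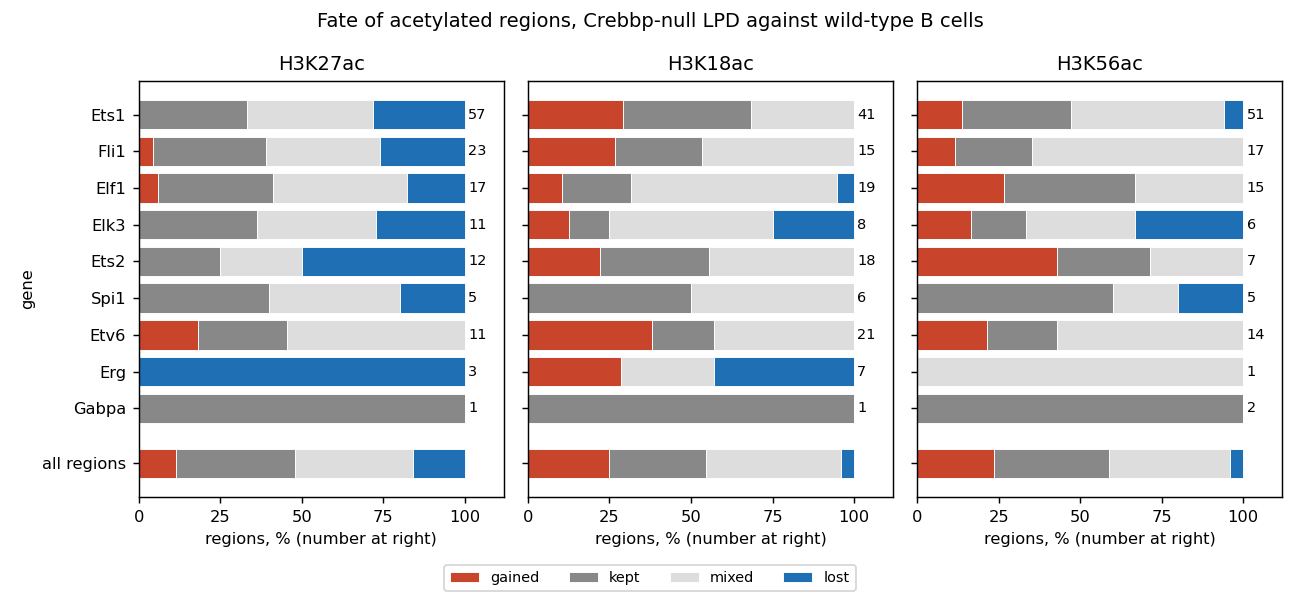
Share of the regions of each ETS gene that were gained, kept, mixed or lost in LPD, set against wild-type B cells, with the number of regions at the right of each bar and the share over all regions of the mark in the lowest bar. Lost H3K27ac regions (blue) stand in 7 of the 9 genes, and gained ones (red) in Fli1, Elf1 and Etv6.

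The larger part of the H3K27ac difference summed over the ETS genes lay in kept regions, which Ets1, Fli1 and Elf1 carried. Summed over the 9 genes, the mean length in LPD minus that in B cells was -67.8 kb. Kept regions held -41.7 kb of this difference and lost regions -22.2 kb. Over all regions the order was the other way, with -2707 kb in kept and -4052 kb in lost regions. Kept regions held 65.4% of the difference of Ets1, 65.0% of that of Fli1 and 82.7% of that of Elf1. Lost regions held more than kept ones in Ets2 (65.1 against 26.5%), Elk3 (55.9 against 26.5%) and Erg (100%, with no kept region), and in Spi1 the shares were 34.5% lost and 33.0% kept. Of the 46 kept regions, 31 (67.4%) were narrower in both LPD lists than in both B cell lists, against 41.6% of all kept regions, and 5 (10.9%) were wider, against 19.3%. The kept H3K18ac regions went the other way, with 22 of 39 (56.4%) wider in LPD, against 45.6%, and 5 (12.8%) narrower, against 15.0%. For H3K56ac 21 of 38 (55.3%) were wider, against 61.7%, and 3 (7.89%) narrower, against 8.97%. None of these comparisons with all regions was split by position, in which the sets differ. Among kept H3K27ac regions, 7 of the 46 were at a gene end (1 kb or less), but most of those over the genome were. Whether the difference in width holds at matched positions was not tested.

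Ets1, a factor that restrains the differentiation of B cells into plasma cells, carried the longest H3K27ac of the 9 genes and the largest drop. Its span is chr9:32636241-32757820 (mm10), and the gene table used gives no strand, so that positions are given from the low-coordinate end. H3K27ac peaks covered 73.2 and 74.4 kb in B cells and 42.2 and 28.5 kb in LPD. The 2 B cell lists were close together, the LPD lists lay far apart, and all of the B cell values were above both LPD values. The mean difference was -38.4 kb, the second-largest drop in kb among 11982 genes, a rank that also depends on the length held in B cells. Unscaled, the LPD mean was 47.9% of the B cell mean. With each list scaled to the same covered length, the LPD values were 39.5 and 38.2 kb and the B cell values 66.1 and 68.9 kb.

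The H3K27ac of Ets1 was lost unevenly along the gene. Between the low end and the midpoint, a stretch of 60.8 kb, peaks covered 26.9 and 26.5 kb in B cells and 4.82 and 4.59 kb in LPD. This is 17.6% of the B cell mean, and the lists within each group were close to each other. Between the midpoint and the high end, B cells had 29.4 and 31.6 kb and LPD 24.6 and 13.6 kb, which is 62.6%. In the 50 kb below the low end they had 16.9 and 16.3 kb and 12.8 and 10.3 kb, which is 69.6%. The split at the midpoint was chosen after the values were seen.

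Single regions show the form of the change. The kept region at chr9:32675365-32682523, 42.7 kb from the low end, had 7147 and 7045 bp of H3K27ac in B cells and 478 and 451 bp in LPD. A second at chr9:32650032-32654964 had 4933 and 4847 bp in B cells and 812 and 877 bp in LPD. Both were wide domains in B cells that were reduced to small peaks in LPD; they are not the widest called regions and were picked after their values were seen. The widest lost region, chr9:32683902-32686769, had 2868 and 2703 bp in B cells and no peak in LPD or in either progenitor list. The widest kept region, chr9:32608216-32619517, lies 16.7 kb outside the gene, on the side of Fli1. It had 11214 and 11249 bp in B cells and 9422 and 8228 bp in LPD, so that it stayed a wide domain. Wild-type and null progenitors already had 5185 and 3809 bp there.

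H3K18ac and H3K56ac differed from H3K27ac over the same locus. Over all of Ets1, H3K18ac covered 23.9 and 24.2 kb in B cells and 40.3 and 30.5 kb in LPD, and H3K56ac 18.9 and 15.5 kb and 25.2 and 24.3 kb. Neither pair of groups overlapped, and both pairs turn lower in LPD per covered length. Between the midpoint and the high end H3K18ac went from 3.61 and 3.64 kb to 15.6 and 10.9 kb, and H3K56ac from 3.32 and 2.88 kb to 10.7 and 10.7 kb. Between the low end and the midpoint H3K18ac had 9.81 and 11.2 kb in B cells and 9.47 and 6.53 kb in LPD. H3K56ac had 7.34 and 6.10 kb there in B cells and 4.79 and 4.75 kb in LPD. In this stretch all 3 marks were lower in LPD, while in the other only H3K27ac was.

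Of the 41 H3K18ac regions of Ets1, 12 were gained and none lost, against 25.0 and 3.88% of all H3K18ac regions. The widest gained was chr9:32731399-32732861, with 1463 and 1286 bp in LPD and none in B cells. Of the 51 H3K56ac regions, 7 were gained and 3 lost, against 23.7 and 4.21% of all H3K56ac regions. The widest gained was chr9:32700922-32702037, with 917 and 1012 bp in LPD. All 3 H3K56ac losses lay together, 42.4 to 44.5 kb from the low end, inside the H3K27ac domain that narrowed most. The widest of them, chr9:32679032-32680317, had 1213 and 805 bp in B cells. Most lost H3K27ac at Ets1 stood alone: 14 of its 16 lost regions had no H3K18ac or H3K56ac peak in any list. Over the 9 genes this held for 26 of 38 (68.4%), against 45.6% of all lost H3K27ac regions, not split by position.

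**Figure D3:**
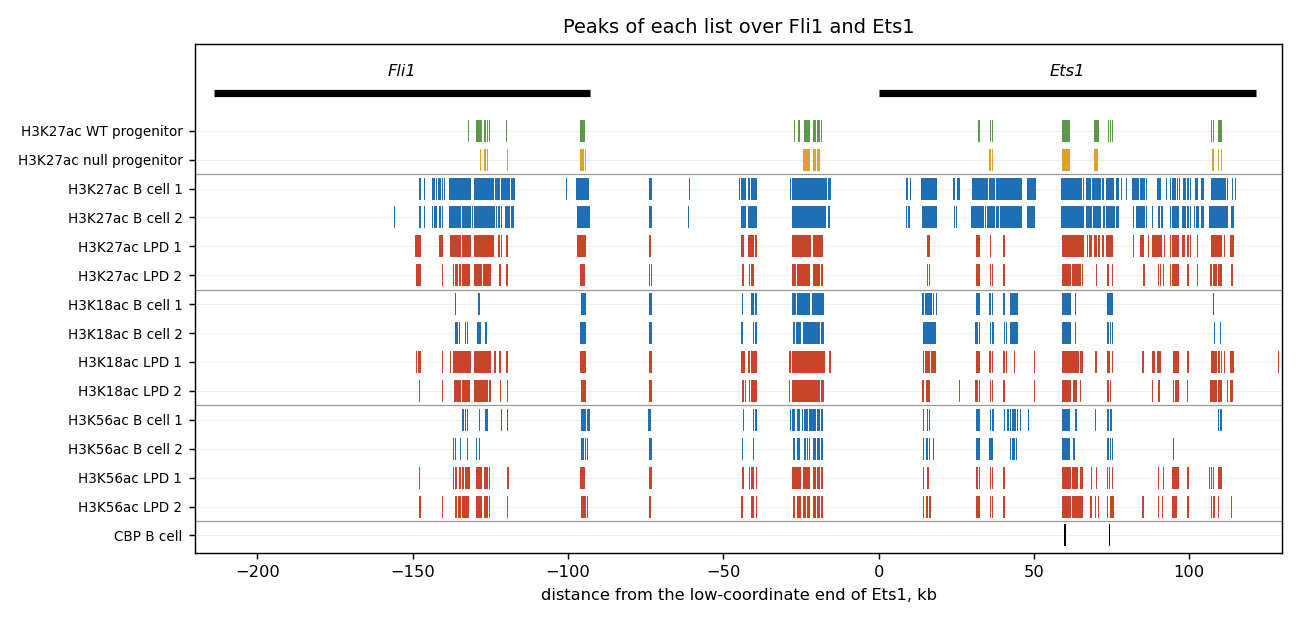
Peaks of the 15 lists over Fli1 and Ets1 by distance from the low-coordinate end of Ets1 in kb, with 1 line per list, wild-type progenitors in green, null progenitors in yellow, B cells in blue, LPD in red and CBP in black. Between the low end of Ets1 and its midpoint the wide H3K27ac blocks of B cells (26.9 and 26.5 kb) are reduced to small peaks in LPD (4.82 and 4.59 kb), while H3K18ac and H3K56ac of Fli1 are wider in LPD.

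Fli1 is the neighbour of Ets1, with its high end 92.8 kb from the low end of Ets1 (chr9:32422204-32543432). Its H3K27ac covered 28.0 and 26.9 kb in B cells and 20.8 and 14.4 kb in LPD. H3K18ac instead covered 3.57 and 5.64 kb in B cells and 17.0 and 13.6 kb in LPD, 3.32 times as much. H3K56ac covered 6.11 and 4.33 kb and 10.7 and 11.5 kb. No pair of groups overlapped, and Fli1 is the 1 gene of the 9 in which H3K27ac was lower and both other marks higher on both scales. The region chr9:32506086-32511612 shows it: H3K18ac covered 833 and 1575 bp of it in B cells and 5527 and 5141 bp in LPD. The H3K27ac region around it, chr9:32506015-32512930, had 6773 and 6806 bp in B cells and 6321 and 4738 bp in LPD. Here H3K18ac in LPD reached nearly the length of the H3K27ac domain. The wild-type and null progenitors had 2774 and 1041 bp of H3K27ac in it.

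Of 8 kept H3K27ac regions at Fli1, 4 had gained H3K18ac. Over the 9 genes this was 10 of 46 (21.7%), against 11.6% of all kept H3K27ac regions, not split by position. For H3K56ac it was 6 of 46 (13.0%), against 11.1%. The 6 lost H3K27ac regions of Fli1 had neither other mark, the widest at chr9:32493166-32494205 with 852 and 780 bp in B cells. The only gained one, chr9:32486888-32487714, had 827 and 220 bp in LPD. Between the low end of Fli1 and its midpoint almost no acetylation was called in B cells or LPD, with 1 peak of 0.204 kb in B cell list 2.

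Erg, the relative of Fli1 on chromosome 16 (chr16:95359169-95586600), had its longest H3K27ac in progenitors. H3K27ac covered 5.52 kb of it in wild-type progenitors and 3.22 kb in null progenitors. B cells had 1.93 and 1.69 kb, and neither LPD list had a peak. With the 6 H3K27ac lists merged, wild-type progenitors had 12 regions at Erg and null progenitors 7, with 6 in both. Of the 12, 10 had no peak in B cells. This makes up most of the 13 of 44 such regions at the 9 genes (29.5%), against 12.5% of all wild-type progenitor regions. Etv6 had 1 of the other 3 and Ets2 the rest. The 2 progenitor regions of Erg that B cells kept lay next to each other, at chr16:95426805-95427667 and chr16:95427730-95428442, and were gone in both LPD lists. The third lost region, chr16:95360007-95360921, at the low end of the gene, had 893 and 905 bp in B cells and no progenitor peak. All 3 regions were lost in H3K18ac too. Away from the gene, 45.5 kb beyond its high end, H3K18ac alone appeared in LPD at chr16:95632064-95633199, with 1136 and 720 bp. A second flank region, chr16:95611671-95612029, was gained with 299 and 358 bp, and another, chr16:95612334-95612656, had 323 bp in LPD list 1 alone. With these 3 the total H3K18ac of Erg overlapped between the groups, at 1.40 and 1.46 kb in B cells and 1.76 and 1.08 kb in LPD. Without the flank the difference was -1.43 kb.

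The RefSeq promoter table (GRCm38.p6, which is mm10) held 3 start sites for Erg, all on the minus strand. The site at 95459348 was the only one with a peak within 1 kb, and only in the 2 progenitor lists, with 608 bp in wild type and 597 bp in null. The 250 bases upstream of it are shown because acetylation at this start was seen in progenitors alone. They are printed 5′ to 3′ with the ETS core GGAA, or its reverse complement TTCC, in capitals.

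Erg, chr16:95459349-95459598, minus strand: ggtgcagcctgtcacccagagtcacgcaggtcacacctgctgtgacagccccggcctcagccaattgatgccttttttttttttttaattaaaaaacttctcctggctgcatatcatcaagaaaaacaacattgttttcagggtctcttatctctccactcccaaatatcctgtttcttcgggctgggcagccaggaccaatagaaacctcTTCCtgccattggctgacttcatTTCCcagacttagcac

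This window held 2 matches and 3 CpG. Over 32851 upstream windows of this length, 93.45% held a GGAA on either strand, with a median of 3 matches, so that its presence marks nothing particular.

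Ets2 lies beside Erg, 116 kb beyond its high end (chr16:95702407-95721049). H3K27ac covered 7.05 and 6.88 kb in B cells and 2.97 and 2.32 kb in LPD, without overlap. The start of the gene was acetylated in each of the 14 lists. The lost regions, 6 of 12 against 15.9% of all, lay 6.66 to 29.0 kb beyond the high end. The widest, chr16:95746035-95746763, had 702 and 729 bp in B cells. With only the gene and 1 kb on either side counted, the difference shrank from -4.31 to -0.21 kb. H3K18ac over the whole of Ets2 went from 5.09 and 5.46 kb to 10.1 and 10.8 kb. Of its 18 H3K18ac regions 4 were gained and none lost, against 25.0 and 3.88% of all, the widest gained at chr16:95726842-95727517. H3K56ac went from 1.96 and 1.86 to 3.30 and 4.13 kb, with 3 of 7 regions gained (23.7% of all), the widest at chr16:95734379-95734908. A pair of progenitor regions at the high end of Ets2, with 651 and 437 bp in wild type, had no peak in B cells or LPD.

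**Figure D4:**
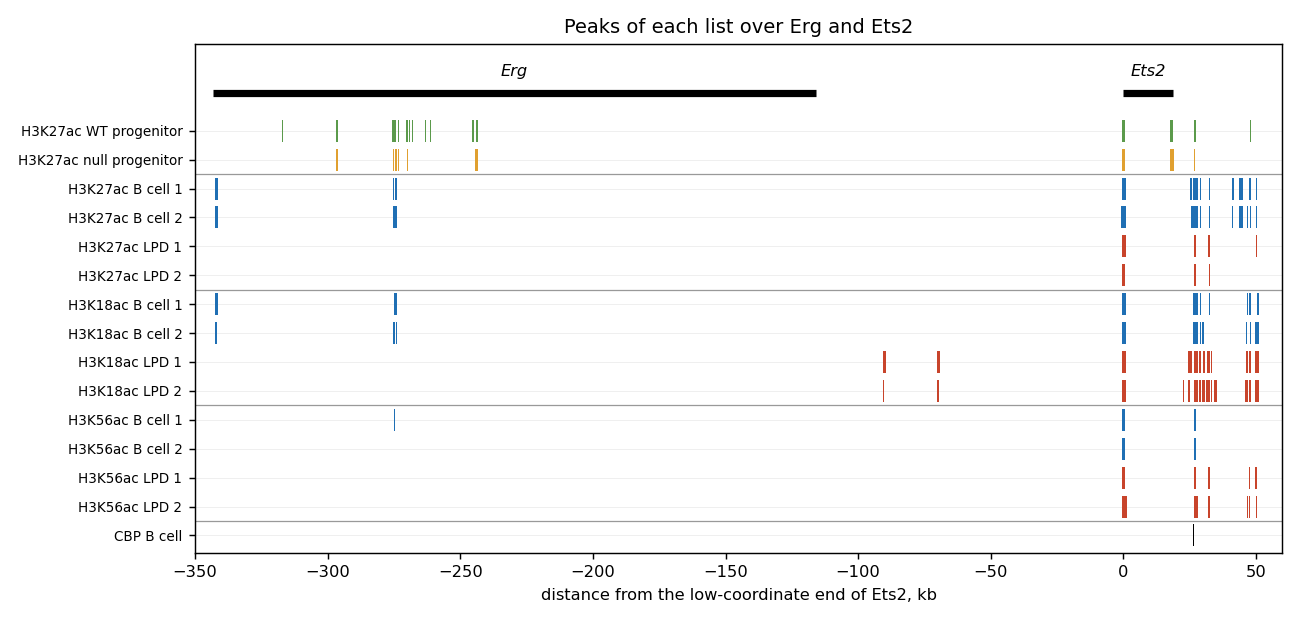
Peaks of the 15 lists over Erg and Ets2 by distance from the low-coordinate end of Ets2 in kb, with 1 line per list and colours for wild-type progenitors (green), null progenitors (yellow), B cells (blue), LPD (red) and CBP (black). The progenitor peaks inside Erg are mostly absent from B cells and all absent from LPD, and the H3K27ac of B cells beyond Ets2 is thinner in LPD.

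Spi1, the gene of PU.1 (chr2:91082374-91115759), had 6.75 and 6.91 kb of H3K27ac in B cells and 3.99 and 3.26 kb in LPD. Its widest kept region, chr2:91095967-91098545 inside the gene, had 2391 and 2526 bp in B cells and 2021 and 2132 bp in LPD, with 1152 and 888 bp in wild-type and null progenitors. The lost region chr2:91080134-91081387 had 1242 and 966 bp in B cells, lies 0.986 kb below the low end and had no progenitor peak. No Spi1 region was gained in any mark. H3K18ac covered 3.42 and 3.48 kb in B cells and 4.50 and 3.63 kb in LPD, and H3K56ac 3.13 and 3.07 kb and 3.26 and 3.30 kb. The H3K56ac difference was the smallest among the 7 genes that were higher in LPD, and the H3K18ac difference turned to -0.005 kb when all lists were cut to the same number of peaks. In H3K56ac 1 small region was lost, chr2:91078927-91079279.

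Elf1, a factor of T and B cells (chr14:79481174-79582491), had 21.4 and 21.3 kb of H3K27ac in B cells and 19.6 and 11.6 kb in LPD. Its groups do not overlap, but LPD list 1 lay close to the B cell lists. Most of the difference stood in the region chr14:79529259-79539305, with 10020 and 9793 bp in B cells and 6906 and 4154 bp in LPD. The wild-type progenitor list had 977 bp in it and the null list none. The widest lost H3K27ac region of Elf1, chr14:79511739-79512288, had 397 and 467 bp in B cells, and the 1 gained, chr14:79580227-79580695, had 469 and 235 bp in LPD. H3K18ac went from 5.84 and 6.38 to 14.3 and 7.35 kb, and H3K56ac from 6.52 and 4.82 to 10.3 and 11.0 kb. The widest gained regions were chr14:79557617-79558472 for H3K18ac and chr14:79559366-79559945 for H3K56ac. They lie close together, and an H3K27ac region there was kept. The 1 lost H3K18ac region was chr14:79511237-79511573. Elf1 overlaps Wbp4, so that its start may also be that of Wbp4.

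Elk3 (chr10:93247415-93311159), mainly a repressor of the ternary complex type that works with SRF, was the gene with the lowest ratio in H3K27ac among those with peaks in both groups. B cells had 7.52 and 7.64 kb and LPD 2.71 and 1.51 kb, 27.9% of the B cell mean. It was the 1 gene of the 9 lower in H3K56ac, with 2.63 and 1.77 kb in B cells and 0.530 and 0.882 kb in LPD. That H3K56ac call rested on regions beyond the gene. The H3K56ac region at the gene's high end had 505 and 301 bp in B cells and 225 and 369 bp in LPD, with overlap. H3K18ac had 2.64 and 2.97 kb and 3.52 and 1.37 kb, with overlap.

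The 12 lists of B cells and LPD merged to 161 regions at the 9 genes, of which 25 were kept in all 3 marks, against 17.9% of all such regions. The only 1 lost in all 3 marks, against 0.661% of all, belonged to Elk3. It is chr10:93335399-93337445, 24.2 kb beyond the high end. It had a mean of 1.86 kb of H3K27ac, 1.63 kb of H3K18ac and 1.60 kb of H3K56ac in B cells, and no peak in LPD. The H3K27ac part, chr10:93335474-93337390, had 1869 and 1854 bp in B cells and was present in wild-type progenitors with 1348 bp and null progenitors with 1034 bp. This region was thus acetylated in null progenitors as in wild type and had no peak in null LPD. Further out, chr10:93353247-93354834 kept H3K27ac, with 1531 and 1451 bp in B cells and 1337 and 714 bp in LPD. H3K56ac was gained inside it at chr10:93353454-93353973, with 305 and 513 bp in LPD.

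At the Elk3 start site (93311159, minus strand) acetylation stood on both sides in B cells. The region inside the gene, chr10:93309837-93311002, was kept in H3K27ac, with 1044 and 973 bp in B cells and 456 and 322 bp in LPD. The one just upstream, chr10:93311216-93311454, had 217 and 200 bp in B cells and none in LPD. The narrowest peaks of the lists are 200 bp, and with peaks within 500 bp merged this H3K27ac region joins the kept one. H3K18ac was lost there as well. The 250 bases upstream of the start are shown because this is the one promoter of the 9 genes that a lost region covers, as far as the promoter table reaches: it holds 9 windows for 6 of the genes.

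Elk3, chr10:93311160-93311409, minus strand: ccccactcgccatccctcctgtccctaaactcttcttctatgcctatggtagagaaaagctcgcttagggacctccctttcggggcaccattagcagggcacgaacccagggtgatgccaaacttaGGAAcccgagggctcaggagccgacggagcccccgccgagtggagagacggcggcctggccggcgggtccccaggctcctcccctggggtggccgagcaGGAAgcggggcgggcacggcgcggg

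The window held 19 CpG and 2 matches to the GGAA core in capitals. Within 1 kb of the start all 14 acetylation lists had a peak, so the start kept acetylation on the gene's side.

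Etv6 (chr6:134035700-134270158) differed from most of the 9 in having no lost region. H3K27ac covered 5.96 and 5.34 kb in B cells and 8.34 and 4.36 kb in LPD, and the groups overlapped. H3K18ac went from 3.57 and 3.78 kb to 13.5 and 8.90 kb, 3.05 times as much, and H3K56ac from 3.30 and 2.74 kb to 4.33 and 5.78 kb. It held 2 of the 4 gained H3K27ac regions of the 9 genes and 8 of the 33 gained in H3K18ac. These were 2 of its 11 H3K27ac regions and 8 of its 21 H3K18ac regions, against 11.4 and 25.0% of all.

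Both regions of the 9 genes gained in all 3 marks were in Etv6, 2 of 161 against 4.27% of all regions. At chr6:134140889-134142662, 106 kb from the gene's start, LPD had a mean of 1.08 kb of H3K27ac, 1.40 kb of H3K18ac and 0.421 kb of H3K56ac. B cells had no peak there. At chr6:134206988-134209263, 172 kb from the start, the LPD means of the 3 marks in the same order were 0.714, 1.82 and 0.68 kb, again with no peak in B cells. Neither had an H3K27ac peak in progenitors of either genotype. None of the 4 gained H3K27ac regions of the 9 genes had one, against 4.93% of all regions in both LPD lists and no B cell list. A region between these sites, 121 kb from the start, did: chr6:134155914-134157143 had 631 and 633 bp in wild-type and null progenitors, 236 bp in B cell list 2 alone, and 1230 and 377 bp in LPD. The kept region chr6:134219375-134221619 narrowed in H3K27ac from 2245 and 1783 bp to 1000 and 528 bp.

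**Figure D5:**
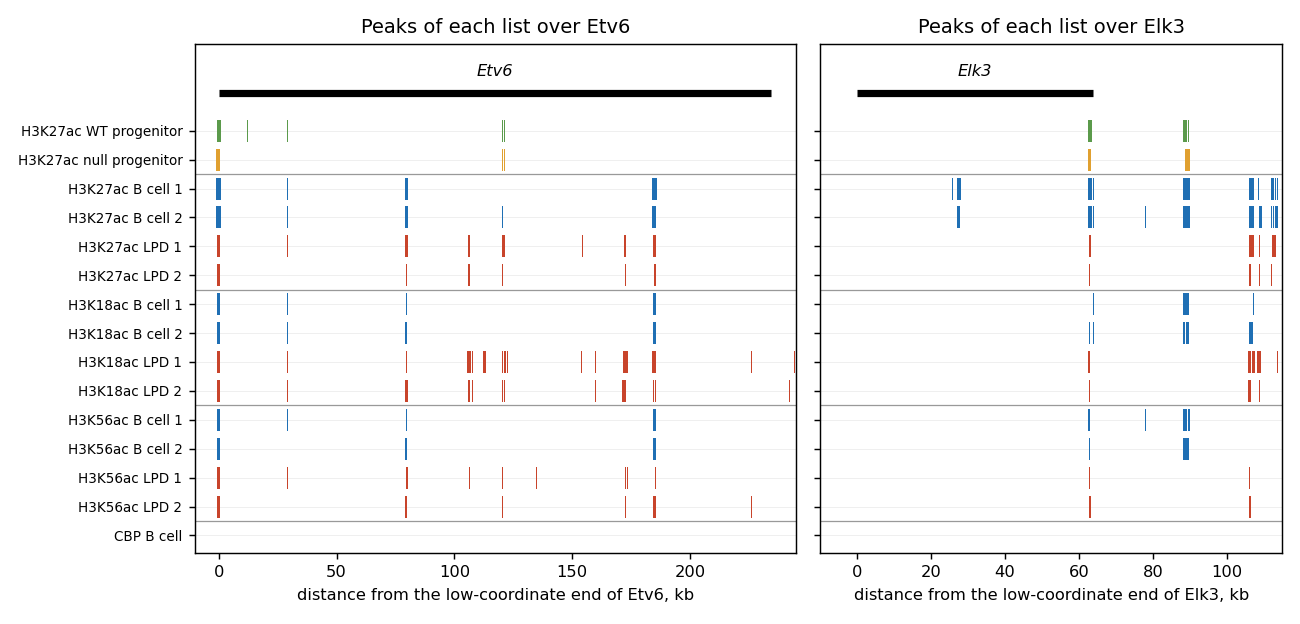
Peaks of the 15 lists over Etv6 (left) and Elk3 (right) by distance from each gene's low-coordinate end in kb, with 1 line per list in the same order in both panels. In Etv6 peaks of all 3 marks stand in LPD alone about 106 and 172 kb from the low end, and in Elk3 the peaks about 89 kb from the low end stand in progenitors and B cells and not in LPD.

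Gabpa (chr16:84834891-84863783) had acetylation only at its start. H3K27ac covered 1.85 and 1.66 kb in B cells and 2.26 and 1.89 kb in LPD, and 1.49 and 1.25 kb in wild-type and null progenitors. H3K18ac covered 1.55 and 1.47 kb and 2.03 and 1.72 kb, and H3K56ac 1.49 and 1.49 kb and 1.90 and 2.04 kb. All 3 marks were higher in both LPD lists; per covered length H3K27ac stayed higher and the other two were lower. No region was gained or lost. The start lies beside that of Atp5j, and the region overlaps both genes. Its upstream bases are shown as a contrast with Elk3 and Erg, a promoter acetylated in all 14 lists, and were picked after the values were seen.

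Gabpa, chr16:84834874-84835123, plus strand: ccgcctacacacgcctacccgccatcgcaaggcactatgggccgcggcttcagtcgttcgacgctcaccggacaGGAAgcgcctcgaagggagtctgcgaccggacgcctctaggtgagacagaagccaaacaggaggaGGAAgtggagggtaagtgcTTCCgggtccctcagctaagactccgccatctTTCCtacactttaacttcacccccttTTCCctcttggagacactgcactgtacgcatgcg

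Here 5 GGAA cores in either direction stood in the window, and 1 of them was part of CCGGAAG, a longer ETS motif found on either strand in 6.91% of the 32851 windows. The AP-1 letters TGACTCA, in 4.46% of windows, and the CREB letters TGACGTCA, in 1.55%, were in none of the 3 windows printed.

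In progenitors the ratio of null to wild type at the 9 genes was close to that of the whole list. The null list covered 27.7 kb at the 9 genes against 40.6 kb in wild type, 68.2%, and the whole list 67.1%. With the 2 lists merged, 42 of the 72 regions with a wild-type peak were also in the null list (58.3%, against 68.0% of all), 30 were in wild type alone and 2 in null alone. By gene the covered length in null was 55.1% of wild type in Fli1, 58.4% in Erg, 64.2% in Elf1, 66.7% in Spi1, 70.2% in Ets1, 75.6% in Elk3, 78.9% in Etv6, 84.1% in Ets2 and 84.1% in Gabpa. No gene was longer in null. With 1 library a genotype there is no replicate check, and with both lists cut to the same number of peaks 12 regions were in wild type alone and 5 in null alone.

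The H3K27ac regions of B cells were also split by their presence in progenitors. Of 97 H3K27ac regions in both B cell lists, 30 also had a wild-type progenitor peak, and 4 of these (13.3%) had no LPD peak, against 6.61% of all such regions. Of the 67 without a progenitor peak, 34 (50.7%) had none, against 46.4% of all. The 4 were the 2 regions of Erg, 1 of Ets2 and 1 of Elk3. No region of Ets1, Fli1, Elf1, Spi1, Etv6 or Gabpa that wild-type progenitors and both B cell lists shared was absent from both LPD lists.

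CBP peaks stood at 2 of the 9 genes, against 3.89% of all genes, with 2 at Ets1 and 1 at Ets2. The list holds exactly 1000 peaks and the sources used here do not say whether it was cut, so a gene without a CBP peak shows nothing about binding. The first, chr9:32696040-32696278 in Ets1, lies 59.9 kb from the low end, next to the midpoint. Acetylation overlapped it in all 14 lists, with H3K27ac of 3401 and 3392 bp in B cells and 3073 and 2838 bp in LPD in the region chr9:32695026-32698432. The second, chr9:32710253-32710596, was overlapped in 12 of 14 lists, and the H3K27ac region around it had 2583 and 2799 bp in B cells and 2128 and 1107 bp in LPD. The third, chr16:95728722-95728926, lies 7.77 kb beyond the high end of Ets2. Only the H3K27ac and H3K18ac peaks of B cells overlapped it. The H3K27ac region there was kept, with 1889 and 1926 bp in B cells and 903 and 770 bp in LPD. From the low end of Ets2, the CBP peak ended at 26.52 kb. The LPD peaks began just past it, at 26.556 and 26.607 kb for H3K27ac and 26.546 and 26.604 kb for H3K18ac. These gaps are narrower than the narrowest peaks of the lists. The 3 sites lie in 8 acetylated regions, counted once per mark, and all 8 were kept, against 83.8% of all regions with a CBP peak.

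Genes of the wider family were counted in the same way. Of 17 other ETS genes, 10 had an H3K27ac region, and 3 had a region gained and 4 a region lost, against 20.0 and 23.3% of genes with a region. In H3K18ac 6 of the 11 with a region had a gain (37.9% of genes) and 1 a loss (8.77%), and in H3K56ac 6 of 10 a gain (33.6%) and none a loss (7.77%). These shares are not matched for the number of regions a gene holds. Spib, the relative of Spi1 in B cells, had 0.885 and 0.792 kb of H3K18ac in B cells and 7.70 and 6.61 kb in LPD, and 0.547 and 0.317 kb and 4.68 and 5.20 kb of H3K56ac. Ehf, an epithelial ETS gene, had no peak in B cells in these marks and 1.65 and 0.279 kb of H3K27ac and 3.43 and 1.09 kb of H3K18ac in LPD. Elf4 had both a gain and a loss in H3K27ac, with 2.99 and 2.83 kb in B cells and 4.38 and 2.78 kb in LPD. Etv5 had the next most lost H3K27ac, with 0.651 and 1.12 kb in B cells and 0.486 and 0 kb in LPD. Elk4 had 2.48 and 2.22 kb of H3K56ac in B cells and 4.96 and 3.97 kb in LPD. Etv1 lost its 1 H3K18ac region.

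Partners of ETS factors were counted too. Of 12, 11 had an H3K27ac region, 8 with a gain and 6 with a loss, against 20.0 and 23.3% of genes with a region. In H3K18ac 10 of 11 had a gain and 3 a loss (37.9 and 8.77%), and in H3K56ac 6 and 4 of 11 (33.6 and 7.77%). A gene with more regions has more that can be called, and the shares are not matched for region number. Runx1, which binds DNA together with ETS1, had 7.18 and 7.67 kb of H3K27ac in B cells and 4.67 and 3.11 kb in LPD, with 4 regions lost. Irf8, a partner of PU.1, lost 12 H3K27ac regions and 3 H3K56ac regions, and H3K56ac went from 7.64 and 7.84 kb to 2.26 and 2.35 kb. Irf4, another partner of PU.1, went from 5.08 and 5.34 kb to 12.8 and 13.8 kb of H3K56ac. Pax5, which recruits ETS1 to the Cd79a promoter, had 23.4 and 23.4 kb of H3K27ac in B cells and 25.3 and 16.3 kb in LPD, with overlap, and 8.15 and 9.11 kb against 20.7 and 13.9 kb of H3K18ac. Srf, the partner of Elk3, went from 2.15 and 2.16 kb to 4.01 and 3.34 kb of H3K27ac. Gabpb1, the other subunit of GABP, went from 2.24 and 2.29 kb to 5.16 and 5.40 kb of H3K56ac. Lmo2 had 5.12 and 5.05 kb of H3K18ac in B cells and 7.47 and 4.74 kb in LPD.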

How the data were processed

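Peak lists of 15 of the 30 samples were used; the other 15 were not analysed here. The submitters' processing notes name MACS2 2.0.10, Bowtie2 2.1.0, bedtools and Picard and the build mm10; the authors' settings are not given in the sources used here. Each deposited list gives chromosome, start and end, so the authors' values are positions, with no score or depth. The peak caller's threshold and each library's depth therefore act on every length reported.

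Regions, fates and lengths were computed with Python 3.11.15, NumPy 2.4.6 and pandas 2.3.3, and plotted with Matplotlib 3.10.9. Overlapping or adjoining peaks were merged, and 1 bp of a peak counted as presence. In the scaled alternative each list was set to the mean covered length of its mark. RefSeq genes (GRCm38.p6) gave spans. The calls were tested on simulated data. The 9 genes, the 17 other ETS genes, the 12 partners and the marker lists were chosen with earlier results of these data known. Besides the 9, the text names, per list, mark and direction, the 2 genes with most called sequence. Among regions it names the widest called per gene, mark and direction, those called alike in all 3 marks and those with CBP; others named were picked after their values were seen. Replicate numbers did not pair libraries: deviations of same-numbered B cell and LPD libraries correlated across genes at 0.02, -0.03 and -0.03 for H3K27ac, H3K18ac and H3K56ac.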

Additional observations from a re-analysis of the deposited data

How the results depend on the processing

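Peak widths and calls move with depth and with the length of a list, and neither can be corrected from positions. With 2 lists a group, leaving out 1 makes calls easier. The cause of the shifts below was not tested.

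H3K27ac at the 9 genes was lower in LPD in 7 or 8 genes under each alternative that gives a length, and the share of lost regions stayed above that of all regions with other merging, coverage and list lengths and with each library left out. A replicate block over the 2 numbered libraries, run although the numbers did not pair them, left the counts at 4 gained, 38 lost and 46 kept H3K27ac regions, as did the other marks at their own, since the calls use each list in the same way.

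With a list required to cover 50% of a region, kept regions were 17 for H3K27ac (12.1%, against 24.7% of all regions) and 21 for H3K18ac (15.4%, against 18.8%). Gained H3K56ac regions were then 31 (26.3%, against 28.8%). With peaks within 500 bp merged, 16 H3K27ac regions were lost (22.5%, against 13.4%). In that setting 21 H3K18ac regions were gained (25.9%, against 25.0%) and 2 H3K56ac regions lost (3.08%, against 4.52%). With lists of equal length in peaks, 14 H3K18ac regions were gained (14.6%, against 16.5%) and 11 lost (11.5%, against 11.7%), and 1 gene was lower. For H3K56ac 10 regions were gained (11.5%, against 14.6%) and 11 lost (12.6%, against 9.45%). Spi1 turned to -0.005 kb in H3K18ac with these lists. With the widest 50% of each list, gained, lost and kept regions were 2, 13 and 28 for H3K27ac, 19, 2 and 18 for H3K18ac, and 11, 3 and 20 for H3K56ac. In the same order these were 3.03, 19.7 and 42.4% for H3K27ac, against 11.9, 16.2 and 39.6% of all regions. They were 26.4, 2.78 and 25.0% for H3K18ac, against 25.9, 5.01 and 29.7%. H3K56ac had 19.0, 5.17 and 34.5%, against 22.2, 4.51 and 35.5%. With the gene and 1 kb only, 1 gene was lower in H3K18ac. For H3K56ac that setting gave 3 lost regions and 0 genes lower, so that Elk3 was no longer called. Per covered length, 2 genes were higher in H3K27ac. In H3K18ac 5 were lower and 2 higher, with Ets1 at -7.04, Spi1 at -1.79, Elf1 at -0.65 and Gabpa at -0.71 kb. In H3K56ac 4 were lower and 1 higher, with Ets1 at -4.29, Spi1 at -1.72, Etv6 at -0.22 and Gabpa at -0.52 kb. In progenitors, lists of equal length gave 12 regions in wild type alone and 5 in null alone, and the gene and 1 kb only gave 1 in null alone.

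With 1 library left out in turn, gained, lost and kept regions were 4 to 14, 38 to 61 and 46 to 61 for H3K27ac. Without LPD library 2, 14 were gained (9.86%, against 25.8% of all regions). Without B cell library 2, 61 were lost (43.9%, against 25.1%). The ranges were 35 to 61, 6 to 13 and 42 to 44 for H3K18ac. Gained H3K18ac regions were 61 without LPD library 2 (48.4%, against 48.3%) and 51 without library 1 (40.2%, against 40.2%). Lost ones were 13 without LPD library 1 (10.2%, against 7.21%) and 10 without B cell library 1 (7.30%, against 8.11%). For H3K56ac they were 23 to 38, 6 to 23 and 38 to 46. Gained H3K56ac regions were 38 and 32 without LPD libraries 1 and 2 in turn (31.7 and 29.1%, against 38.4 and 36.7%). Without B cell library 2, 23 were lost (19.3%, against 9.65%). Genes higher and lower in LPD were 1 to 2 and 7 to 8 for H3K27ac, 7 to 9 and 0 to 2 for H3K18ac, and 7 and 1 to 2 for H3K56ac.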
